A study of Mus musculus with 5 samples.

Results

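The epidermal growth factor (EGF) family was followed as 10 genes, the ligands Egf, Hbegf, Areg, Ereg, Tgfa and Btc and the receptors Egfr, Erbb2, Erbb3 and Erbb4, chosen by gene symbol from the 35478 genes listed. Of these 10, 9 had enough counts to be tested and Ereg did not. Kidney cortex RNA was sequenced from 2 Prdm16fl/fl mice, which served as controls, and 3 Ksp-Cre/Prdm16fl/fl mice, called knockout mice here. All 5 were male mice of 7 to 8 weeks with loxP sites around exon 9 of both Prdm16 alleles, of a mixed C57BL/6J and 129 background by the methods and C57BL/6J by the labels. All 5 had also undergone ischemia-reperfusion injury of 1 kidney (unilateral, UIRI): the left renal pedicle was clamped for 35 minutes at 38.5°C, the right kidney was removed on day 10, and the kidney was taken on day 11. The groups thus differed in Ksp-Cre, a Cre recombinase driven by the promoter of Ksp-cadherin (Cdh16) in tubular epithelium, so Prdm16 of other cortical cells was not targeted and an effect of Cre itself cannot be told apart. No uninjured kidney was analysed here, and the comparison asked how loss of tubular Prdm16 bears on the injured kidney.

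EGF family ligands are made as membrane-bound precursors and are freed by proteases called sheddases. They bind receptor tyrosine kinases that pair up and signal through the RAS-ERK and PI3K-AKT arms. Egfr binds all of the 6 ligands, Erbb4 binds Hbegf, Ereg and Btc as well as the neuregulins, Erbb3 binds neuregulins and has a weak kinase, and Erbb2 has no known ligand and acts as a partner. In the kidney, Egf is known as a product of the thick ascending limb and distal convoluted tubule that is shed into urine, whereas Hbegf, Areg and Tgfa are known to be made by injured tubules.

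The libraries held 14939040 to 16425161 counts. On log2 CPM (counts per 1000000 of the library total, scaled by the TMM method), the control mice correlated at 0.991 across genes and knockout mice 1 and 2 at 0.993, while knockout mouse 3 correlated at 0.950 to 0.966 with the other 4 libraries. Knockout mouse 3 therefore stood apart, and results that rest on it are given with and without it. Prdm16 was counted over the whole gene, not over the floxed exon, at 25.28 and 20.02 CPM in the control mice and 17.14, 16.95 and 17.99 CPM in the knockout mice, a log2 difference of -0.38 ± 0.15 (SE, edgeR adjusted p = 0.259). The transcript of the Cre driver gene, Cdh16, was at 962 ± 25.5 CPM (SD, n = 2) in the control mice and 777 ± 176 CPM (SD, n = 3) in the knockout mice, with the lowest value, 575 CPM, in knockout mouse 3. Genes expressed in the proximal tubule, the bulk of the cortex, were present in every library, with Slc34a1 at 3579 and 3109 CPM in the control mice and at 1041, 1039 and 483 CPM in the knockout mice.

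No member passed the edgeR quasi-likelihood test at an adjusted p of 0.05, beside 0.976% of all 16394 genes tested. At an unadjusted p of 0.05, 2 of the 9 members passed, Egf lower and Erbb2 higher in the knockout mice, beside 18.8% of all genes, so this count is no result about the family. With DESeq2, 1 member passed, Egf, beside 8.0% of genes. Without knockout mouse 3, edgeR called 4 of the 9 members, Egf lower and Tgfa, Egfr and Erbb4 higher, beside 18.9% of genes. In 3 members, Egfr, Erbb2 and Erbb4, every knockout mouse lay above both control mice, as did 20.3% of all genes. In 1 member, Egf, every knockout mouse lay below both, as did 21.3% of genes. The other 5 tested members overlapped between the genotypes. The median log2 difference of the 9 members was 0.36, beside 0.038 for all genes tested.

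**Figure D1:**
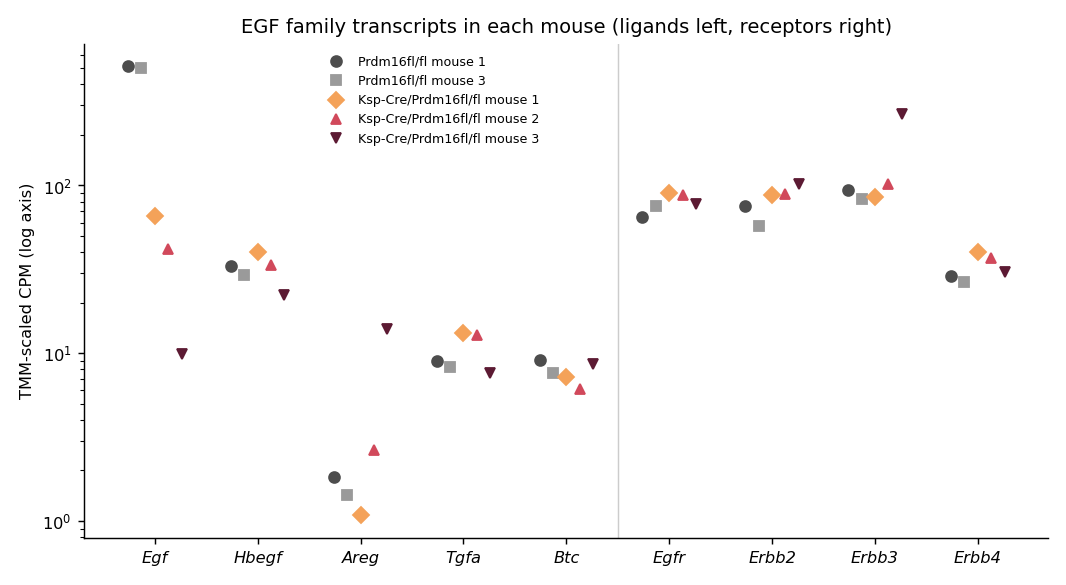
TMM-scaled CPM (log axis) of the 9 tested EGF family genes, 1 point per mouse, with ligands left of the line and receptors right of it. Egf sits at 512 and 498 CPM in the Prdm16fl/fl mice and at 65.6, 41.6 and 9.93 CPM in the Ksp-Cre/Prdm16fl/fl mice, and Areg and Erbb3 stand high in Ksp-Cre/Prdm16fl/fl mouse 3.

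Egf, the founding ligand of the family, lies on chromosome 3 at 129471223 to 129548971 on the minus strand in the coordinates of the files, with 25 merged exons of 4803 bp. It had 7599 and 6942 counts in the control mice and 1155, 704 and 149 counts in the knockout mice, or 512 and 498 CPM against 65.6, 41.6 and 9.93 CPM. The groups did not overlap, and the means were 505 ± 10.0 CPM (SD, n = 2) and 39.0 ± 27.9 CPM (SD, n = 3). The knockout mice thus lay 7.71-, 12.1- and 50.9-fold below the control mean, with knockout mouse 3 the lowest. The log2 difference was -3.69 ± 0.68 (SE) with an edgeR adjusted p of 0.0646, just short of the threshold. The spread among the knockout mice bore on that value: without knockout mouse 3 the log2 difference was smaller, -3.23, and the edgeR adjusted p was 0.000171, the lowest of the alternatives, whose adjusted p ran up to 0.521. Egf also passed with DESeq2 (adjusted p = 0.00121) and without the filter on low counts (edgeR adjusted p = 0.0217). Whichever mouse was left out, the log2 difference lay between -4.29 and -3.23. In the exons, 506 bp are shared with 6330410L21Rik on the opposite strand, which had 2 to 10 counts in any library.

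Areg, amphiregulin, a ligand of Egfr with lower affinity than Egf, was low in 4 libraries and stood high in knockout mouse 3. The gene lies on chromosome 5 at 91287458 to 91296291 on the plus strand, with 6 merged exons of 1215 bp. It had 27 and 20 counts in the control mice and 19, 45 and 209 counts in the knockout mice, or 1.82 and 1.44 CPM against 1.08, 2.66 and 13.9 CPM. Knockout mouse 3 was 8.56-fold above the control mean, knockout mouse 2 was also above both control mice, and knockout mouse 1 lay below both, so the groups overlapped. The log2 difference of 1.84 ± 1.09 (SE) did not pass (edgeR adjusted p = 0.416) and was 0.19 without knockout mouse 3 (adjusted p = 0.798, and 0.252 to 0.863 over all alternatives). Egf was thus lowest and Areg highest in the same mouse.

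Because Egf and Areg differed most among the mice, in opposite directions in knockout mouse 3, the promoter windows of these ligands are shown, 250 bases before to 50 bases after the transcript start, from RefSeq on GRCm38.p6. Of the 10 members, 7 had a window in that table, and Egf had 2 of them, of which the one at the farther upstream start is given. Capitals mark matches, on either strand, to 3 motifs searched: the TATA box TATAAA, the AP-1 site TGAGTCA and the cAMP response element TGACGTCA, none of which overlaps another.
Egf, chr3:129755273-129755572, minus strand: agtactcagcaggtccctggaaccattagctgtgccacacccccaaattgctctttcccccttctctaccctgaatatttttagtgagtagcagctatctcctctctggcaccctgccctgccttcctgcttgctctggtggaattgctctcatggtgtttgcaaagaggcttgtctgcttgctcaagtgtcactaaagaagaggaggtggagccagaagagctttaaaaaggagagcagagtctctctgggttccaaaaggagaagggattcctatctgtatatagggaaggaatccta
Areg, chr5:91139349-91139648, plus strand: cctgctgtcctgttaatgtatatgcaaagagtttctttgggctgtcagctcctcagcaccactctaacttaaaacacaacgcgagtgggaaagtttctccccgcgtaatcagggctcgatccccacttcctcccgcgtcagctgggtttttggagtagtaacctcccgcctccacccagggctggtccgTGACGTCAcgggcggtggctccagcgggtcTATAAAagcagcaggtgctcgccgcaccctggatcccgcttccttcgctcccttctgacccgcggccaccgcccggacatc
The window of Areg held the cAMP response element with its first base at -61 from the start and the TATA box with its first base at -31. The windows of the other 6 genes, both of Egf included, held none of these letters. Of 32851 promoters of this length, 13.6% held TATAAA, 5.20% held TGAGTCA and 1.79% held TGACGTCA. These matches describe sequence only, and the series held no measurement of binding at them.

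Tgfa, transforming growth factor alpha, a ligand of Egfr alone, was low in all libraries. The gene lies on chromosome 6 at 86172020 to 86252726 on the plus strand, with 6 merged exons of 4748 bp. Its level was 9.03 and 8.32 CPM in the control mice and 13.3, 12.8 and 7.66 CPM in the knockout mice, so knockout mice 1 and 2 lay above both control mice and knockout mouse 3 below them. The log2 difference was 0.37 ± 0.28 (SE, edgeR adjusted p = 0.514). Without knockout mouse 3 it was 0.59 and passed (adjusted p = 0.0304, and 0.0304 to 0.894 over all alternatives).

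Btc, betacellulin, a ligand of Egfr and Erbb4, is encoded on chromosome 5 at 91505120 to 91550853 on the minus strand, with 6 merged exons of 2876 bp. It was at 9.17 and 7.61 CPM in the control mice and 7.21, 6.14 and 8.66 CPM in the knockout mice, which overlapped. The log2 difference was -0.19 ± 0.23 (SE, edgeR adjusted p = 0.693). Per length, the means were 6.41 TPM in the control mice and 6.55 TPM in the knockout mice, so the sign of this small difference depended on the scale.

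Ereg, epiregulin, a further ligand of Egfr and Erbb4, lies on chromosome 5 at 91222476 to 91241508 on the plus strand, with 5 merged exons of 4136 bp. It had 0 counts in both control mice and in knockout mouse 2, 8 counts in knockout mouse 1 and 1 count in knockout mouse 3, and it was not tested. Given the floor of 3 counts that a count of 0 allows, Ereg lay under 0.202 and 0.215 CPM in the control mice and under 0.177 CPM in knockout mouse 2, limits that cover counting error only. Of its exons, 132 bp are shared with Gm19610 on the opposite strand. Ereg, Areg and Btc form a cluster with Epgn, epigen, a low-affinity ligand of Egfr that had 0 to 3 counts in any library and was not tested either. The gaps between neighbours were 39.4 kb from Epgn to Ereg, 45.9 kb from Ereg to Areg and 209 kb from Areg to Btc. Within this cluster, the high level in knockout mouse 3 was measured for Areg, whereas Ereg had 1 count there and Btc, at 8.66 CPM, lay between the control mice.

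Hbegf, heparin-binding EGF-like growth factor, a ligand of Egfr and Erbb4, lies on chromosome 18 at 36637980 to 36648858 on the minus strand, with 6 merged exons of 2375 bp. It had 32.9 and 29.1 CPM in the control mice and 40.1, 33.8 and 22.3 CPM in the knockout mice. Knockout mice 1 and 2 lay above the control mice and knockout mouse 3 below them. The means were 31.0 ± 2.66 CPM (SD, n = 2) and 32.1 ± 9.0 CPM (SD, n = 3), and the log2 difference was 0.049 ± 0.25 (SE, edgeR adjusted p = 0.932). Its sign was not stable, with -0.14 to 0.26 when each mouse was left out.

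Levels of different genes were compared by TPM, which divides each count by gene length before scaling to the same total in each library. Egf held 245 and 216 TPM in the control mice and 36.6, 23.2 and 4.94 TPM in the knockout mice. The 6 ligands summed to 292 and 253 TPM in the control mice and to 98.8, 80.1 and 65.9 TPM in the knockout mice. Without Egf, the other ligands summed to 46.9 and 37.1 TPM in the control mice and to 62.2, 56.9 and 61.0 TPM in the knockout mice. The lower ligand sum of the knockout mice was thus a lower level of Egf, since by TPM the sum of the rest lay higher in all 3. In knockout mouse 3, however, Areg alone gave 27.4 of the 61.0 TPM of the rest. Hbegf, at 22.5 TPM in that mouse, lay below the 31.8 and 25.5 TPM of the control mice. Egf made up 83.9% and 85.3% of the ligand sum in the control mice and 37.1%, 29.0% and 7.50% in the knockout mice. Hbegf made up 10.9% and 10.1% in the control mice and 45.8%, 47.6% and 34.1% in the knockout mice. Areg made up 1.18% and 0.972% in the control mice, 2.41% and 7.32% in knockout mice 1 and 2, and 41.6% in knockout mouse 3.

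The order of the ligands was the same in both control mice, Egf above Hbegf, Btc, Tgfa, Areg and Ereg. Btc and Tgfa were neighbours there at 7.32 and 5.51 TPM and at 4.37 and 3.65 TPM. In knockout mice 1 and 2, Hbegf was first at 45.3 and 38.1 TPM and Egf second. In knockout mouse 3, Areg was first at 27.4 TPM, Hbegf second at 22.5 TPM and Egf, at 4.94 TPM, came behind Btc at 7.20 TPM. The leading ligand transcript thus differed by genotype and, among the knockout mice, by mouse.

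**Figure D2:**
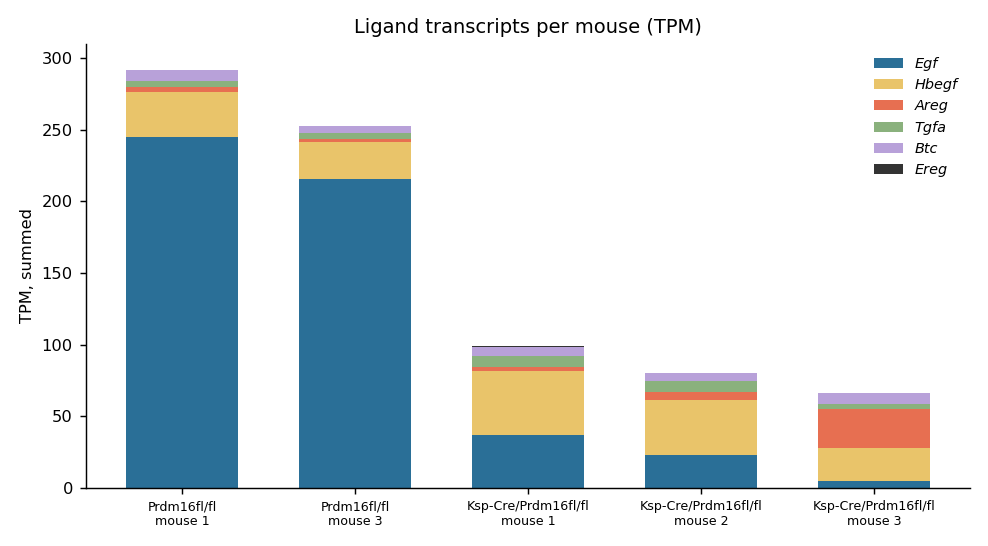
TPM of the 6 ligands stacked for each mouse (vertical axis in TPM, starting at 0). The sum is 292 and 253 TPM in the Prdm16fl/fl mice and 65.9 to 98.8 TPM in the Ksp-Cre/Prdm16fl/fl mice, and the Egf segment accounts for the difference.

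Egf was set beside the markers of the segments that make it. In bulk RNA, fewer cells of a segment and less RNA per cell cannot be told apart. The 8 thick ascending limb markers summed to 2982 and 3989 CPM in the control mice and to 2786, 2477 and 1338 CPM in the knockout mice. None of the 8 passed edgeR, and DESeq2 called 2 lower, Slc12a1 and Cldn10, beside 8.0% of all genes. Of the 8, 5 lay lower in all 3 knockout mice, beside 21.3% of all genes, and none lay higher in all 3. The median log2 difference of the 8 was -0.58, and Cldn19 went the other way, at 0.30. Without knockout mouse 3 the median was -0.37, and edgeR called 1 of the 8 higher and 2 lower, beside 18.9% of all genes. Umod, uromodulin, made up most of the sum of the 8 in every library. It was at 2051 and 2772 CPM against 1993, 1776 and 799 CPM, a log2 difference of -0.66 (edgeR adjusted p = 0.418). Slc12a1, the sodium-potassium-chloride cotransporter, was at 542 and 788 CPM against 446, 416 and 360 CPM, a log2 difference of -0.71 (edgeR adjusted p = 0.146). Of the 6 distal convoluted tubule markers, 1 passed lower by edgeR, beside 0.976% of all genes tested. It was Klhl3, an adaptor that regulates the sodium-chloride cotransporter, with a log2 difference of -1.30 (edgeR adjusted p = 0.0467). DESeq2 called 2 of these 6 markers lower, beside 8.0% of all genes. In all 3 knockout mice, 5 of the 6 lay lower, beside 21.3% of all genes. The sums of the 6 were 1964 and 1253 CPM in the control mice and 1142, 833 and 338 CPM in the knockout mice. Their median log2 difference was -1.02, and -0.76 without knockout mouse 3. Pvalb, parvalbumin, had 0 counts in knockout mouse 3. Slc12a3, the sodium-chloride cotransporter, made up most of the sum of the 6 in every library. It was at 1472 and 919 CPM against 801, 559 and 183 CPM (log2 difference -1.22, edgeR adjusted p = 0.318). Every one of these median and marker differences was smaller in size than the -3.69 of Egf, apart from Pvalb, at -3.93.

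Egf was then expressed per 100 CPM of a marker in the same mouse. Per Umod, Egf was at 25.0 and 18.0 in the control mice and at 3.29, 2.34 and 1.24 in the knockout mice. Per Slc12a1 it was at 94.5 and 63.2 against 14.7, 9.99 and 2.76. Per Slc12a3 it was at 34.8 and 54.2 against 8.19, 7.44 and 5.43. Per Cdh16, expressed along the tubule, it was at 52.3 and 52.8 against 7.56, 4.67 and 1.73. The mean log2 ratio was lower in the knockout mice per each of these 4 genes, with differences of -3.32, -3.39, -2.65 and -3.74 in that order, and the groups did not overlap in any. Pvalb gave another picture: it was at 12.5 and 11.0 CPM in the control mice and 1.82, 0.413 and 0 CPM in the knockout mice, where knockout mouse 2 had 7 counts. Per 100 CPM of Pvalb, Egf was at 4085 and 4537 in the control mice, 3609 in knockout mouse 1 and 10057 in knockout mouse 2, so this ratio was not lower in both. An exact two-sided permutation test of 2 against 3 mice cannot go below p = 0.2, so the ratios are a description. The part of the markers in the level of Egf was not tested.

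**Figure D3:**
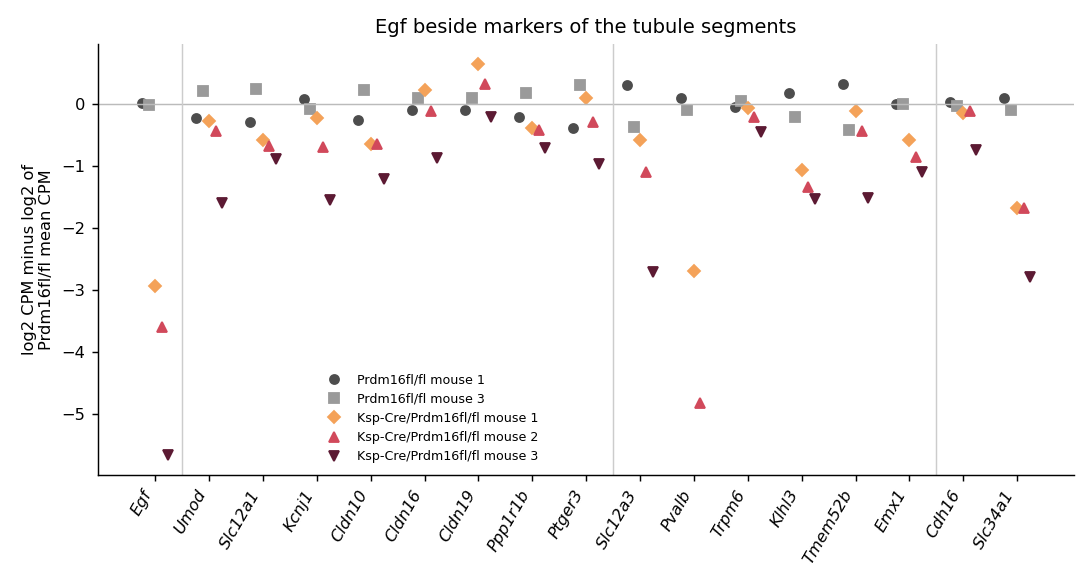
log2 CPM of each gene in each mouse minus the log2 of its Prdm16fl/fl mean, for Egf, then 8 thick ascending limb markers, 6 distal convoluted tubule markers, and Cdh16 and Slc34a1. Egf lies farther below 0 in each Ksp-Cre/Prdm16fl/fl mouse than the other genes shown, except Pvalb, which lies at -4.83 against -3.60 for Egf in mouse 2 and has no point in mouse 3, where it had 0 counts.

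The genes with levels most like those of Egf were sought by the Euclidean distance between log2 CPM profiles, each centred on its mean over the 5 libraries, among 11379 genes. The 5 nearest to Egf were Slc22a22 (distance 0.927), Slc22a28 (0.937), Slc34a3 (1.19), Slc22a7 (1.26) and Ldc1 (1.26). Of these, Slc22a22, Slc22a28 and Slc22a7 encode organic anion transporters and Slc34a3 a phosphate cotransporter. The 5 nearest to Egfr were Kpna3, Fam174b, Ogfrl1, Gdf11 and Tle1, at distances of 0.0543 to 0.0914. These distances describe 5 libraries and were not tested. They are larger for Egf, whose own profile spans more.

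The 10 proximal tubule markers summed to 9821 and 9391 CPM in the control mice and to 3614, 4063 and 2475 CPM in the knockout mice. Of the 10, 2 passed lower by edgeR, beside 0.976% of all genes tested. They were Slc22a8, an organic anion transporter (log2 difference -2.68, adjusted p = 0.0242), and Acsm2, an acyl-CoA synthetase (-1.56, adjusted p = 0.0327). DESeq2 called 7 of the 10 lower, beside 8.0% of all genes. All 10 lay lower in all 3 knockout mice, beside 21.3% of all genes. Their median log2 difference was -1.31, and -1.08 without knockout mouse 3. The 8 tubular injury markers summed to 13390 and 14473 CPM against 28931, 30117 and 35785 CPM. Of these 8, 1 passed higher by edgeR, beside 0.976% of all genes. It was Krt19, a keratin (log2 difference 1.97, adjusted p = 0.0412). DESeq2 called 6 of the 8 higher, beside 8.0% of all genes. In all 3 knockout mice, 6 of the 8 lay higher, beside 20.3% of all genes, and the other 2 overlapped between the genotypes. Havcr1, kidney injury molecule 1, was at 283 and 273 CPM against 683, 696 and 472 CPM (log2 difference 1.15, edgeR adjusted p = 0.0633). The lower Egf thus stood beside a lower proximal tubule marker sum and a higher injury marker sum in every knockout mouse. Their part in it was not tested.

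**Figure D4:**
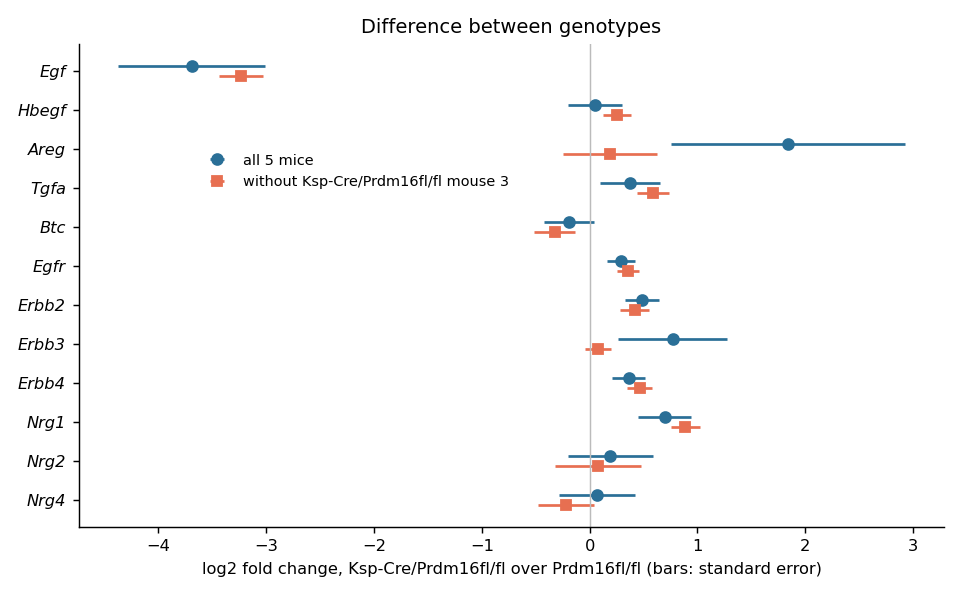
log2 fold change between genotypes with its standard error for 9 EGF family members and 3 neuregulins, from the fit of all 5 mice (circles) and without Ksp-Cre/Prdm16fl/fl mouse 3 (squares). Egf lies at -3.69 and -3.23, while Areg moves from 1.84 to 0.19 and Erbb3 from 0.77 to 0.08 when that mouse is left out.

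Among the receptors, all 4 had a positive log2 difference and none passed the edgeR test. Egfr, the receptor shared by the 6 ligands, lies on chromosome 11 at 16700153 to 16868158 on the plus strand, with 29 merged exons of 12844 bp. Its level was 64.7 and 75.0 CPM in the control mice and 90.0, 88.1 and 77.4 CPM in the knockout mice, with means of 69.8 ± 7.31 CPM (SD, n = 2) and 85.2 ± 6.84 CPM (SD, n = 3). The groups did not overlap, although knockout mouse 3 and control mouse 3 were only 77.4 and 75.0 CPM. The log2 difference was 0.29 ± 0.13 (SE, edgeR adjusted p = 0.304), and 0.36 without knockout mouse 3, where it passed (adjusted p = 0.0472, and 0.0472 to 0.753 over all alternatives).

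Erbb2, the partner receptor without a ligand of its own, lies on chromosome 11 at 98303310 to 98328542 on the plus strand, with 27 merged exons of 4998 bp. It was at 75.3 and 57.3 CPM in the control mice and 87.8, 89.0 and 102 CPM in the knockout mice. The knockout mice lay close together and above both control mice, with means of 92.8 ± 7.64 CPM (SD, n = 3) and 66.3 ± 12.7 CPM (SD, n = 2). The log2 difference was 0.48 ± 0.16 (SE, edgeR adjusted p = 0.184), and 0.42 without knockout mouse 3 (adjusted p = 0.0615, and 0.0615 to 0.775 over all alternatives). Its exons share 9 bp with Mien1 on the opposite strand, which had 908 to 1673 counts.

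Erbb3, the neuregulin receptor that couples to PI3K, lies on chromosome 10 at 128403392 to 128425504 on the minus strand, with 28 merged exons of 5999 bp. It was at 94.1 and 83.2 CPM in the control mice and 84.9, 102 and 267 CPM in the knockout mice. Knockout mouse 3 was 3.01-fold above the control mean, while knockout mouse 1 lay between the control mice. The log2 difference of 0.77 ± 0.50 (SE, edgeR adjusted p = 0.460) was 0.08 without knockout mouse 3 (adjusted p = 0.687, and 0.332 to 0.878 over all alternatives). Areg and Erbb3 were thus both highest in knockout mouse 3.

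Erbb4, a receptor for neuregulins, Hbegf and Btc, lies on chromosome 1 at 68071063 to 69147756 on the minus strand, with 33 merged exons of 24355 bp. It was at 29.1 and 26.6 CPM in the control mice and 39.9, 36.7 and 30.6 CPM in the knockout mice. The groups did not overlap, with means of 27.8 ± 1.72 CPM (SD, n = 2) and 35.8 ± 4.70 CPM (SD, n = 3). The log2 difference was 0.36 ± 0.15 (SE, edgeR adjusted p = 0.278), and 0.46 without knockout mouse 3, where it passed (adjusted p = 0.0249, and 0.0249 to 0.821 over all alternatives).

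Per length, Erbb3 held 36 and 28.9 TPM in the control mice, Erbb2 34.6 and 23.9 TPM, Egfr 11.6 and 12.2 TPM and Erbb4 2.74 and 2.28 TPM. Erbb3 and Erbb2 did not differ beyond the spread between the control mice, whereas Egfr lay below both and Erbb4 lowest in every library. The place of Egfr rests on division by its merged exon length, 12844 bp beside 4998 bp for Erbb2 and 5999 bp for Erbb3. By CPM, Erbb4 was also lowest in every library, whereas Egfr lay above Erbb2 in control mouse 3 and knockout mouse 1. In the knockout mice, Erbb3 held 38.0, 45.6 and 106 TPM, Erbb2 47.1, 47.7 and 48.6 TPM, Egfr 18.8, 18.4 and 14.4 TPM and Erbb4 4.40, 4.04 and 3.01 TPM. Erbb2 was first in knockout mice 1 and 2 and Erbb3 in knockout mouse 3, where Erbb3 made up 61.7% of the receptor sum beside 42.4% and 43.0% in the control mice. The 4 receptors summed to 84.9 and 67.2 TPM in the control mice and to 108, 116 and 172 TPM in the knockout mice.

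The receptors are expressed by several cortical cell types, so other marker lists were set beside them. The 7 fibroblast and pericyte markers summed to 380 and 585 CPM in the control mice and to 917, 878 and 622 CPM in the knockout mice, with none passed (edgeR) and a median log2 difference of 0.44. The 8 macrophage and monocyte markers summed to 964 and 1345 CPM against 1574, 1447 and 707 CPM, with none passed. Like Tgfa, Egfr and Erbb4, both sums were lower in knockout mouse 3 than in knockout mice 1 and 2. The receptors Erbb2 and Erbb3 went the other way, highest in knockout mouse 3 at 102 and 267 CPM. The sum of the 7 endothelial markers was also highest in knockout mouse 3, at 311, 263 and 456 CPM in the knockout mice. Between the genotypes these 7 genes were mixed, with log2 differences of -0.67 to 0.74. Of them, 2 lay higher in all 3 knockout mice and 1 lower, beside 20.3% and 21.3% of all genes, and 4 overlapped. The part of these cells in the receptor levels was not tested.

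Beside the 10 members, the neuregulins are the ligands of Erbb3 and Erbb4. Nrg1 was at 27.3 and 34.9 CPM in the control mice and 59.3, 55.5 and 36.3 CPM in the knockout mice, a log2 difference of 0.70 ± 0.24 (SE, edgeR adjusted p = 0.209). The groups did not overlap, and without knockout mouse 3 the log2 difference of 0.89 passed (adjusted p = 0.00321, and 0.00321 to 0.640 over all alternatives). For Nrg2 the log2 difference was 0.19 (edgeR adjusted p = 0.829) and for Nrg4 0.07 (adjusted p = 0.935). Nrg3 had 0 counts in all 5 libraries.

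The genes around the receptors were read from lists by role, of which none had a member that passed the edgeR test. Genes of these lists that passed DESeq2, and Etv1, are named as well, chosen after their values were seen. DESeq2 called 1 higher and 1 lower of 10 shedding genes, and none of 16 receptor inhibitors or 11 PI3K-AKT genes. It called 1 of 13 feedback inhibitors, 1 of 17 adaptors and kinases and 2 of 14 ERK-responsive transcripts. Of all genes, DESeq2 called 8.0%, so these calls are no result about the lists. The first list held 10 genes of ligand shedding, which are ADAM proteases, the iRhoms and the protease inhibitor Timp3. Of these, Adam10, which frees Egf and Btc, was at 137 and 152 CPM in the control mice and 201, 206 and 246 CPM in the knockout mice, a log2 difference of 0.59 ± 0.14 (SE). It did not pass edgeR (adjusted p = 0.112) and passed DESeq2 (adjusted p = 0.0158, and 0.0117 to 0.557 over all alternatives). Timp3 was at 1533 and 1408 CPM in the control mice and lower in all 3 knockout mice, at 1031, 1062 and 930 CPM (log2 difference -0.55 ± 0.15, SE). It did not pass edgeR (adjusted p = 0.131) and passed DESeq2 (adjusted p = 0.00425, and 0.00425 to 0.581 over all alternatives). Adam17, which frees Hbegf, Areg and Tgfa, overlapped at 57.9 and 59.8 CPM against 64.9, 65.9 and 47.7 CPM (log2 difference 0.02, edgeR adjusted p = 0.965). Of the iRhoms that carry Adam17, Rhbdf1 had a log2 difference of 0.08 (edgeR adjusted p = 0.817) and Rhbdf2 one of 0.55 (adjusted p = 0.312), with 70.8 CPM in knockout mouse 3 beside 41.8 and 44.2 CPM in knockout mice 1 and 2.

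Of 16 inhibitors of the receptors, 7 lay higher in all 3 knockout mice and none lower, beside 20.3% and 21.3% of all genes tested, with a median log2 difference of 0.23. Errfi1, an inhibitor of the Egfr kinase whose transcript follows receptor activity, was at 732 and 616 CPM in the control mice and 368, 573 and 1280 CPM in the knockout mice. It thus lay below both control mice in knockout mice 1 and 2 and above both in knockout mouse 3 (log2 difference 0.14, edgeR adjusted p = 0.908). Lrig1, which promotes receptor degradation, had a log2 difference of 0.35 (edgeR adjusted p = 0.407), Cbl, a ubiquitin ligase of Egfr, one of 0.17 (adjusted p = 0.556), and Rnf41, a ubiquitin ligase of Erbb3, one of 0.31 (adjusted p = 0.268).

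Downstream of the receptors, the kinase gene Mapk3 overlapped between the genotypes, with a log2 difference of 0.04 (edgeR adjusted p = 0.892). Map2k2, a kinase of the same cascade, was at 124 and 131 CPM in the control mice and lower in all 3 knockout mice, at 94.9, 82.6 and 87.5 CPM (log2 difference -0.53 ± 0.11, SE). It did not pass edgeR (adjusted p = 0.0851) and passed DESeq2 (adjusted p = 0.0124, and 0.0124 to 0.573 over all alternatives). Of 13 tested feedback inhibitors of ERK signalling, 7 lay higher in all 3 knockout mice and none lower, again beside 20.3% and 21.3% of all genes, with a median of 0.37. Dusp6, a phosphatase of ERK, was at 64.0 and 63.4 CPM against 88.2, 82.7 and 75.3 CPM (log2 difference 0.37 ± 0.12, SE, edgeR adjusted p = 0.179). Dusp5, its nuclear relative, was at 4.58 and 5.17 CPM against 8.97, 6.73 and 9.13 CPM (0.76 ± 0.24, SE, adjusted p = 0.172). The Sprouty genes Spry2 and Spry4 had log2 differences of 0.26 and 0.38 (edgeR adjusted p = 0.477 and 0.353). Their relative Spry1 was at 17.5 and 19.7 CPM in the control mice and higher in all 3 knockout mice, at 40.4, 25.9 and 38.8 CPM (log2 difference 0.92 ± 0.22, SE). It did not pass edgeR (adjusted p = 0.113) and passed DESeq2 (adjusted p = 0.0146, and 0.0146 to 0.570 over all alternatives).

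Of 14 tested ERK-responsive transcripts, 7 lay higher and 1 lower in all 3 knockout mice, beside 20.3% and 21.3% of all genes, with a median of 0.47. Myc, a growth-related transcription factor, was at 21.4 and 18.2 CPM in the control mice and 45.2, 36.3 and 48.6 CPM in the knockout mice, a log2 difference of 1.13 ± 0.17 (SE). It did not pass edgeR (adjusted p = 0.0505) and passed DESeq2 (adjusted p = 3.81e-05, and 3.81e-05 to 0.521 over all alternatives). Plaur, the urokinase receptor, was at 8.76 and 11.3 CPM in the control mice and 24.5, 15.5 and 34.2 CPM in the knockout mice, a log2 difference of 1.30 ± 0.35 (SE). It did not pass edgeR (adjusted p = 0.131) and passed DESeq2 (adjusted p = 0.0104, and 0.0104 to 0.586 over all alternatives). The ETS factors Etv4 and Etv5 had log2 differences of 0.28 and -0.10 (edgeR adjusted p = 0.535 and 0.781). The third ETS factor of the list, Etv1, was the transcript lower in all 3 knockout mice, at 52.3 and 49.4 CPM against 28.8, 32.3 and 42.8 CPM (log2 difference -0.56, edgeR adjusted p = 0.191, and 0.00321 to 0.689 over all alternatives). Phlda1 had a log2 difference of 0.69 (edgeR adjusted p = 0.410), and Fosl1, with 1 to 15 counts, was not tested. Of 11 genes of the PI3K-AKT arm, 4 lay higher in all 3 knockout mice and none lower (median 0.29), and of 17 adaptors and kinases of the RAS-ERK cascade, 7 lay higher and 4 lower (median 0.08), beside the same 20.3% and 21.3%. The medians of all 6 lists lay above the 0.038 of all genes tested, which is a description of these 5 libraries.

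**Figure D5:**
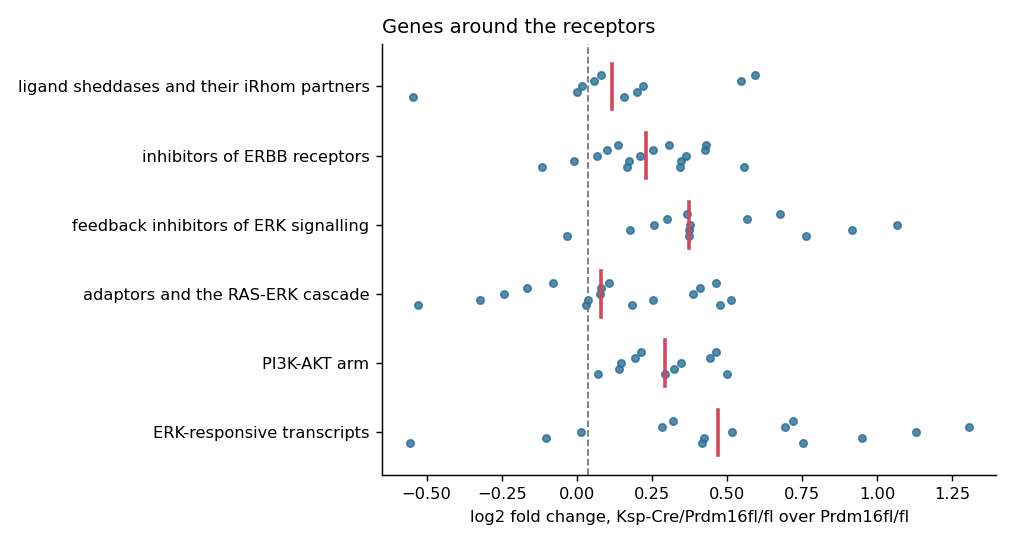
log2 fold change between genotypes of each tested gene (dots) of 6 lists around the EGF family receptors, with the list's median (red bar) and the median of all genes tested (dashed line, 0.038). The medians run from 0.08 for the adaptors to 0.47 for the ERK-responsive transcripts, and no gene shown passed the edgeR test.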

How the data were processed

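RNA-seq of 5 mouse kidneys, 1 library per mouse, was grouped by genotype as the labels give it. The methods describe oligo(dT)-selected mRNA read on an MGI platform. The authors deposited raw counts per gene, not normalized, with TPM and FPKM made from them. Per the labels, counting used featureCounts 2.0.1. The labels name hg38, a human build, although the files list mouse genes whose coordinates differ from GRCm38, so positions are printed as the files give them. The aligner, the annotation and the use of strand are not given in the sources used here, and counts of overlapping genes are uncertain.

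Counts were filtered with filterByExpr of edgeR 4.0.16, scaled by TMM and fitted over all 16394 genes with the quasi-likelihood test and Benjamini-Hochberg adjustment (R 4.3.3). A gene passed at an adjusted p under 0.05. Alternatives were DESeq2 1.42.0, library size or upper quartile scaling, other filters, the mouse number as a block, leaving out each mouse, a log2 fold change of at least 1, and limma 3.58.1 on log2(FPKM + 1) and log2(FPKM + 0.1) of the deposited FPKM. Scripts were tested on simulated data.

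The genes named beside the members are other ligands, sheddases, inhibitors and ERK targets listed by symbol, segment markers, genes of 20 lists that passed, and the 5 nearest profiles to Egf and to Egfr among genes averaging 3 or more in log2 CPM. Not all genes named by this rule are given here. Members and lists were chosen with earlier results of these data known. With 2 control mice, precision is limited by the number of animals.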

Additional observations from a re-analysis of the deposited data

How the results depend on the processing

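Of 117 recomputed log2 differences of the 9 members, 108 kept their direction and their side of the threshold. No member passed in the test reported. In alternatives where no gene of all passed either, such as the replicate block, the side of the threshold could not change. The 108 therefore overstates how stable the calls were. Of the members, 1 passed with DESeq2, 1 without the filter on low counts, and 0 to 4 when each mouse was left out, against 0 in the test reported. Egf had a log2 difference of -3.70 with DESeq2 and -3.69 without the filter, where it passed, and -4.29 to -3.23 when each mouse was left out, passing without knockout mouse 3. Hbegf reversed to -0.046 with the replicate block and ranged from -0.14 to 0.26 over the mice left out. For Tgfa that range was 0.24 to 0.59, for Egfr 0.18 to 0.40 and for Erbb4 0.28 to 0.46, and each passed without knockout mouse 3. Over all genes, 160 passed, 10.6% of them higher in the knockout mice, against 1210 with DESeq2 (25.5% higher), 51 with library size scaling (27.5%), 471 without the filter, 69 and 49 with limma on log2(FPKM + 1) (26.1%) and log2(FPKM + 0.1) (30.6%), and 0 with the replicate block, where 2061 had an unadjusted p under 0.05. Leaving out 1 mouse gave 0 to 3053 (0 for each of the other 4 mice, with 1330 to 2514 at an unadjusted p under 0.05, and 3053 without knockout mouse 3, 41.5% of them higher). Leaving out a control mouse assumes that the lone one varies like the knockout mice. Library size scaling moved the median of all genes from 0.038 to 0.149. The labels share mouse numbers 1 and 3 between the groups, and deviations from the group means correlated at 0.014 and -0.016 for those pairs. The deviations of the control mice from their own mean are mirror images, so these values cannot tell whether mice of the same number were paired. With 14939040 to 16425161 counts per library, Ereg and Epgn were at the limit of detection.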

Other observations

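Markers of cells outside the tubule were measured in the same libraries. The 5 erythroid markers summed to 6.67 and 10.8 CPM in the control mice and to 151, 150 and 40.5 CPM in the knockout mice. All 5 lay higher in every knockout mouse, beside 20.3% of all genes tested. DESeq2 called all 5, beside 8.0% of all genes, and edgeR called none, beside 0.976%. By edgeR, all 5 had an unadjusted p under 0.05, as did 18.8% of all genes. Of the 6 podocyte markers, 1 passed lower by edgeR, beside 0.976% of all genes. It was Nphs1, nephrin of the slit diaphragm, at 53.9 and 50.01 CPM in the control mice and 28.3, 29.5 and 28.7 CPM in the knockout mice (log2 difference -0.85, adjusted p = 0.0412). The 7 endothelial markers had a median log2 difference of 0.15 with none passed, and their sums of 301 and 305 CPM in the control mice lay between those of the knockout mice, 263 to 456 CPM. Of 7 urothelial markers, 3 had enough counts to be tested, with sums of 3.43 to 10.9 CPM over the 5 libraries.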
